A study of Mus musculus with 3 samples.

Results

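The 10 genes described here are genes of the endoplasmic reticulum (ER) that encode its folding chaperones or act in the unfolded protein response: Hspa5, Hsp90b1, Calr, Pdia4, Pdia6, Sdf2l1, Dnajb9, Herpud1, Xbp1 and Hyou1. They were chosen by name, with earlier results of these data known. All 10 had a probe on the array, with 12 probes among them. The array held 20660 genes that could be named and 55681 probes in all. RNA was measured in NIH3T3 cells, a line of mouse embryonic fibroblasts labelled as WT, grown to confluency in medium with serum. Separate cultures were left untreated (None) or given 20 μM AR7 or 20 μM BMS614, and RNA was taken after 24 h. AR7 is a small molecule that binds the retinoic acid receptor alpha (RARα) and raises chaperone-mediated autophagy, and BMS614 is a selective RARα antagonist. Each condition is 1 array, so none of the differences given here was repeated and none could be tested. Both compounds were dissolved in DMSO. The study describes the None culture as grown with no additions, and its sources used here name no DMSO for it. Both compounds are set against the same None array, so their differences from it are not independent of each other.

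Proteins that enter the ER fold with the help of chaperones, disulfide isomerases and lectins, and those that fail are moved back to the cytosol for degradation. When unfolded proteins build up, the sensors IRE1 (Ern1), PERK (Eif2ak3) and ATF6 are activated, which is called the unfolded protein response. IRE1 splices the Xbp1 transcript to give an active transcription factor, ATF6 is cut to release another, and together with the PERK branch they raise the transcription of chaperone and degradation genes. Fibroblasts secrete large amounts of collagen and fibronectin and keep these genes active in ordinary culture.

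A sequence element known for this response is the ER stress response element (ERSE), in which CCAAT is followed by 9 bases of any kind (N) and then CCACG. Searched in these letters on both strands of the 250 bases before each transcription start in RefSeq promoters (GRCm38.p6), it was found in 37 of 32851 promoters (0.113%). Of the 10 genes, 9 had a promoter in that set, and Hyou1 had none. The letters of ERSE were found in Hspa5, Hsp90b1, Calr and Pdia6, and in Hsp90b1 they occurred at 2 places. The shorter ERSE-II, ATTGG followed by 1 base of any kind and CCACG, was found in 10 promoters (0.0304%), among them that of Herpud1. Herpud1 also held TGATGCAA, the amino acid response element of the PERK branch (260 promoters, 0.791%). The promoters of Pdia4, Xbp1, Dnajb9 and Sdf2l1 held no match to these 3 spellings, nor did any of the 9 hold TGACGTGG, the core of the XBP1-bound UPRE (185 promoters, 0.563%), or the cyclic AMP element TGACGTCA (508 promoters, 1.55%). The separate pieces of ERSE are common: CCAAT was found in 33.8% of all promoters and in 8 of the 9, and CCACG in 28.3% and in 7 of the 9. A match here is a run of letters and not a measured binding site.

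The windows of the genes with an element, and that of Sdf2l1, which had the lowest AR7 value relative to None of the 10, are printed 5′ to 3′ on the strand of the gene, with the last base next to the transcription start and with ERSE, ERSE-II and the amino acid response element in capitals. They lie at chr2:34771840-34772089 (plus strand) for Hspa5, chr10:86705445-86705694 (minus) for Hsp90b1, chr8:84846932-84847181 (minus) for Calr, chr12:17266339-17266588 (plus) for Pdia6, chr8:94386179-94386428 (plus) for Herpud1 and chr16:17132384-17132633 (minus) for Sdf2l1. Counted back from the start, the element of Hspa5 covers bases 65 to 47, the 2 elements of Hsp90b1, each of 19 bases, end at bases 194 and 89, that of Calr bases 162 to 144 and that of Pdia6 bases 98 to 80. In Herpud1, ERSE-II covers bases 52 to 42 and the amino acid response element bases 112 to 105. The Calr element, the Hsp90b1 element nearer the start and the Herpud1 amino acid response element lie on the opposite strand and so read as the reverse complement.
Hspa5: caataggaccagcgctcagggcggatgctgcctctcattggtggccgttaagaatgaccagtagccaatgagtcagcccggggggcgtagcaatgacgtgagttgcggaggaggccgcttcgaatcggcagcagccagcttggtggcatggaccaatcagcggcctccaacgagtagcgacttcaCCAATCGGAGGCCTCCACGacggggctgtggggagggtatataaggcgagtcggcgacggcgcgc
Hsp90b1: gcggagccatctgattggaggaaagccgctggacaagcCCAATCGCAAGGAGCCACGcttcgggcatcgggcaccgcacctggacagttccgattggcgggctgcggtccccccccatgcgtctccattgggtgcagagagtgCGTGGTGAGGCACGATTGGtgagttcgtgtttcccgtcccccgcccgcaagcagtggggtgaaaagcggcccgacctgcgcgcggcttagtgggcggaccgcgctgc
Calr: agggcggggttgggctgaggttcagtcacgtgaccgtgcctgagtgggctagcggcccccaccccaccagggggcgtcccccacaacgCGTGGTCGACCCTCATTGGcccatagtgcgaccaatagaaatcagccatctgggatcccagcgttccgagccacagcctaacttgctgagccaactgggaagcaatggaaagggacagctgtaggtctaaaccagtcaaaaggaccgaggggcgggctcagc
Pdia6: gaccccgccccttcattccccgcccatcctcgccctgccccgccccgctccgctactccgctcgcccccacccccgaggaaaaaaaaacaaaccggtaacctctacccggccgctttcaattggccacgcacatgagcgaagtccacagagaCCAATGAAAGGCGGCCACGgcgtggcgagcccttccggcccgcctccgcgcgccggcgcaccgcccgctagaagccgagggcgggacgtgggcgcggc
Herpud1: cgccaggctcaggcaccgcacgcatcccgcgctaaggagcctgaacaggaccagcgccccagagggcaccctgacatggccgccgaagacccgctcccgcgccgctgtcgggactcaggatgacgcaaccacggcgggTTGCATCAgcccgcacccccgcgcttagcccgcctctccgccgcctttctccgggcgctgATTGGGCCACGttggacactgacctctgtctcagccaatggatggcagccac
Sdf2l1: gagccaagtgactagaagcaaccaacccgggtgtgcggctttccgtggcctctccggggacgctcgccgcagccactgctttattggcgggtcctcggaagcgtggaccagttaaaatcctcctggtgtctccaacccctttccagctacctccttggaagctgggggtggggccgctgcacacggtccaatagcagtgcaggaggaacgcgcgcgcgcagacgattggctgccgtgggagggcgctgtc

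Each array held 59305 spots that are not controls. The 75th percentile of the median pixel intensity was 692 for None, 780.5 for AR7 and 909 for BMS614, and 55.4% to 61.8% of probes were well above background, None having the fewest. Of 10 fibroblast markers, all were well above background on every array, Col1a2, Vim and S100a4 with log2 signals of 16.96 to 18.27, but Col3a1 was dim at 5.26 to 5.59. Their median difference from None was -0.013 with AR7, with 2 higher and 2 lower by more than 2 SD of the repeated spots described next, and 0.095 with BMS614, with 5 higher and 1 lower. Fbn1, the fibrillin of elastic fibres, was above None by 0.37 with AR7 and by 0.54 with BMS614, more than any of the 10 ER genes in either direction. Of 12 markers of other cell types, 11 had a probe, and 4 of these (Cdh1, Pecam1, Krt8 and Myh6) were well above background on all arrays with log2 signals of 5.59 to 7.51. Of these 4, only Krt8 differed from None by more than 2 SD, at -0.443 (SD 0.22) with AR7 and -0.76 (SD 0.20) with BMS614. Epcam, Alb, Tubb3, Gfap and Adipoq were above background on no array. Values are log2 signals after the robust multi-array average (RMA) background and quantile normalization, so a difference of 1 is 2-fold. Because a total of RNA from a whole culture was measured, fewer cells with a transcript and less of it in each cell cannot be told apart. Error is given as the SD of the log2 difference over spots of 267 probes that are printed 10 times on each array, taken at a like signal level. It ran from 0.43 at the lowest signals to 0.049 at the highest for AR7 against None and from 0.35 to 0.045 for BMS614 against None. It holds the error of spots only, not that between cultures, labellings or hybridizations, and each of the 12 probes has 1 spot.

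With AR7, the signal of all 10 genes was lower than on the None array, by small amounts. The median log2 difference was -0.10, and the values ran from -0.31 for Sdf2l1 to -0.039 for Pdia4. Over all 30292 probes well above background on the 3 arrays the median was -0.0078, and 52.1% were lower. Those lower by more than 2 SD of repeated spots were 4, namely Hspa5, Hsp90b1, Sdf2l1 and Xbp1, and none was higher by that rule, where 8.83% of all probes were lower and 8.77% higher. The same 4 genes were lower by at least 1.1-fold, where 19% of the 34524 probes above background on at least 1 of both arrays were lower and 21.7% higher. In none of the 10 did the higher signal exceed the lower by 25% or more, and 16.9% of probes did so. These shares depend on signal. Of the 11597 probes whose log2 signal averaged 10 or more, the range in which 9 of the 10 genes lie, 7.19% were lower and 8.21% higher by at least 1.1-fold, 11.8% were lower and 11.9% higher by more than 2 SD, and 1.46% differed by 25% or more.

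With BMS614, the 10 genes stood on both sides of None. The median log2 difference was -0.034 against -0.0054 over all probes. Of the 10 genes, 7 were lower and 3 higher, where 51.3% of all probes were lower. Calr and Dnajb9 were higher and Pdia4, Sdf2l1 and Xbp1 lower by more than 2 SD, while 12.5% of all probes were higher and 13.1% lower by that rule. At 1.1-fold, 2 genes were higher and 2 lower, where 23.3% of 34799 probes were higher and 21.4% lower. None differed by 25% or more, as 18.8% of probes did. Within the 11597 brighter probes, 16.3% were higher and 17.3% lower by more than 2 SD, 10.4% were higher and 11.5% lower by at least 1.1-fold, and 2.54% differed by 25% or more.

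**Figure D1:**
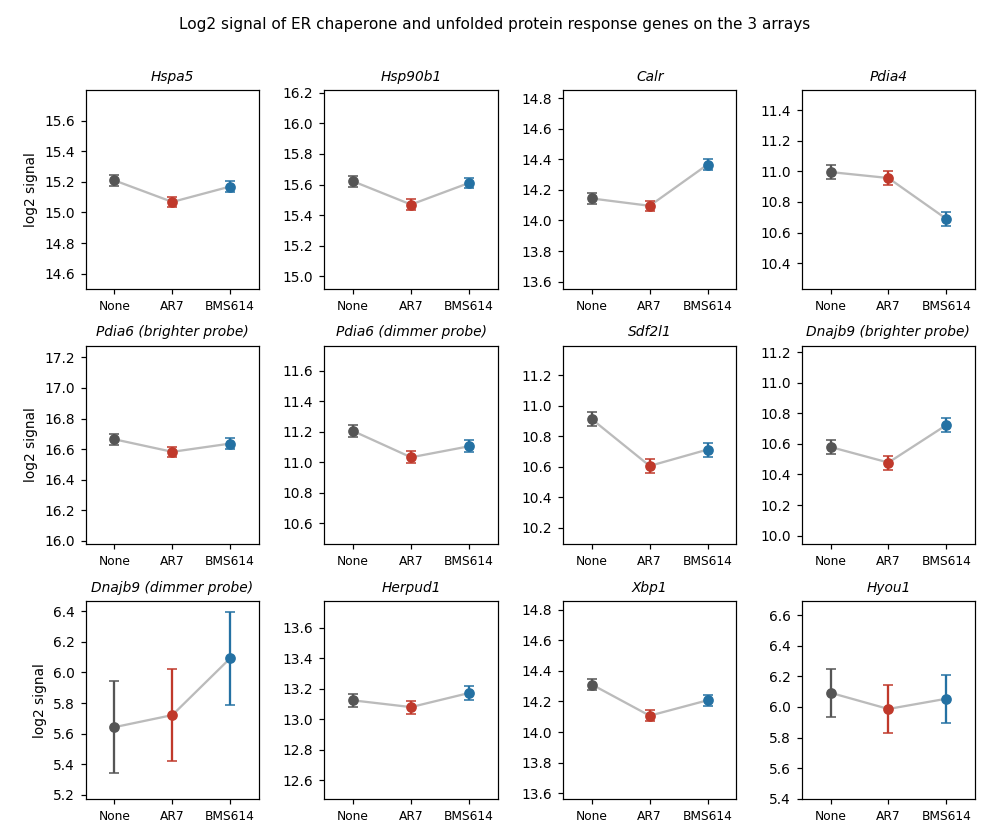
Log2 signal of the 12 probes of the 10 genes on the None, AR7 and BMS614 arrays, 1 array per condition, each panel spanning about the same log2 range on its own axis. Bars are the error of 1 spot on 1 array, the larger of the 2 SDs of a difference from None divided by the square root of 2, and the AR7 point is the lowest of the 3 for every gene but Pdia4 when the brighter probe is taken.

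The main chaperones of the ER come first. Hspa5 encodes BiP, the HSP70-type chaperone that also holds the stress sensors inactive. Its log2 signal was 15.21 in None, 15.07 in AR7 and 15.17 in BMS614. AR7 was thus the lowest array, with a difference from None of -0.14 (SD 0.049), and BMS614 lay within 1 SD of None at -0.040 (SD 0.045). The AR7 and BMS614 arrays differed by -0.10 (SD 0.036), which is past 2 SD.

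Hsp90b1, the HSP90-type chaperone of the ER (GRP94), had the same order. Its log2 signal was 15.62 in None, 15.47 in AR7 and 15.61 in BMS614. AR7 was below None by -0.15 (SD 0.049, 1.11-fold) and below BMS614 by -0.14 (SD 0.036), whereas BMS614 and None differed by -0.011 (SD 0.045). Hyou1 encodes the large HSP70-like protein that exchanges nucleotide on BiP, and its only probe was dim. The Hyou1 log2 signal was 6.09 in None, 5.99 in AR7 and 6.05 in BMS614, and the differences from None of -0.11 (SD 0.22) and -0.039 (SD 0.20) are within 1 SD, so a difference of the size seen for Hspa5 would not be detectable with this probe.

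Calr encodes calreticulin, the soluble lectin chaperone that binds sugar-tagged glycoproteins and stores calcium. Its log2 signal was 14.14 in None, 14.10 in AR7 and 14.37 in BMS614. The BMS614 array stood above both others, by 0.22 against None (SD 0.045, 1.17-fold), while AR7 and None did not differ beyond the error of spots (-0.049, SD 0.049). The AR7 to BMS614 difference of -0.27 (SD 0.036, 1.21-fold) was the largest of the 10 genes in size under the RMA processing. It lay within the error of spots of those of Dnajb9 and of Pdia4, which had the opposite sign. The ranking depended on the processing, Dnajb9 being at -0.31 when its probes were averaged.

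The disulfide isomerases Pdia4 and Pdia6 form and rearrange disulfide bonds in folding proteins. Pdia4 had a log2 signal of 11.00 in None, 10.96 in AR7 and 10.69 in BMS614. This is the only gene of the 10 with its lowest value in BMS614, at -0.31 against None (SD 0.065, 1.24-fold), and with AR7 close to None (-0.039, SD 0.058). The AR7 array was above the BMS614 array by 0.27 (SD 0.054).

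Pdia6 had 2 probes for the same transcript. The brighter gave 16.66 in None, 16.58 in AR7 and 16.64 in BMS614, and no pair of arrays differed by more than 2 SD, AR7 against None being -0.082 (SD 0.049). The dimmer gave 11.21 in None, 11.03 in AR7 and 11.11 in BMS614, with AR7 past 2 SD at -0.17 (SD 0.055). Both probes placed the arrays in the same order, with None highest and AR7 lowest, and only the dimmer put AR7 and None apart by more than the error of spots.

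Sdf2l1 and Dnajb9 encode partners of BiP. Sdf2l1 is a small ER protein found with the co-chaperone ERdj3, and its log2 signal was 10.91 in None, 10.61 in AR7 and 10.71 in BMS614. Both compounds were below None, AR7 by -0.31 (SD 0.058, 1.24-fold) and BMS614 by -0.20 (SD 0.065, 1.15-fold). The AR7 value was below that of BMS614 by a difference at the limit of 2 SD and counted as past it (-0.11, SD 0.054).

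Dnajb9 encodes ERdj4, a J-domain protein that recruits BiP to the sensor IRE1. Its brighter probe had a log2 signal of 10.58 in None, 10.48 in AR7 and 10.72 in BMS614, so that BMS614 was above None by 0.14 (SD 0.065) and above AR7, the latter pair differing by -0.25 (SD 0.054). AR7 against None was -0.10 (SD 0.058), within 2 SD. The dimmer probe gave 5.64 in None, 5.72 in AR7 and 6.09 in BMS614. Its differences from None, 0.079 (SD 0.43) for AR7 and 0.45 (SD 0.35) for BMS614, lie within 2 SD, and it is the only probe of the 12 on which AR7 was not below None.

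Herpud1 encodes a membrane protein of the HRD1 complex, which carries misfolded proteins out of the ER for degradation. Its log2 signal of 13.12 in None, 13.08 in AR7 and 13.17 in BMS614 was nearly level. Neither compound differed from None by more than 1 SD (-0.044, SD 0.061 for AR7, and 0.048, SD 0.048 for BMS614), and AR7 against BMS614 was -0.092 (SD 0.044).

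Xbp1 encodes the transcription factor that IRE1 activates by splicing. The probe is read here as total Xbp1 transcript, and the spliced form was not measured. The log2 signal was 14.31 in None, 14.11 in AR7 and 14.21 in BMS614. As in Sdf2l1, each pair of arrays was apart by more than 2 SD, with AR7 at -0.20 against None (SD 0.049, 1.15-fold), BMS614 at -0.10 (SD 0.045) and AR7 against BMS614 at -0.10 (SD 0.036).

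Set directly against BMS614, the AR7 array was lower for 9 of the 10 genes and higher for Pdia4, with a median of -0.10 against 0.0 over all probes. Of all probes 49.8% were lower, and 48.9% of the 11597 brighter ones. Some other lists stood alike in this comparison. The 10 fibroblast markers were lower in 10 with a median of -0.097, and the 14 oxidative folding enzymes lower in 13 with a median of -0.11. The remaining ER lists did not, with medians from -0.039 for the translocation and secretory genes to 0.025 for the degradation genes. Lower by more than 2 SD were 7 genes and higher was 1, where 12.3% of all probes were lower and 13% higher, and 19.8% and 21.5% of the 11597 brighter ones. At 1.1-fold, 3 genes were lower and 1 higher, where 23.3% of 35707 probes were lower and 23% higher, and 9.59% and 11.4% of the brighter ones. None of the 10 differed by 25% or more, against 19.6% of probes and 2.37% of the brighter ones. In the order of the arrays, AR7 was lowest for 9 genes and BMS614 for 1. Over the 11597 brighter probes AR7 was lowest in 32.5%, BMS614 in 37.3% and None in 30.2%.

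**Figure D2:**
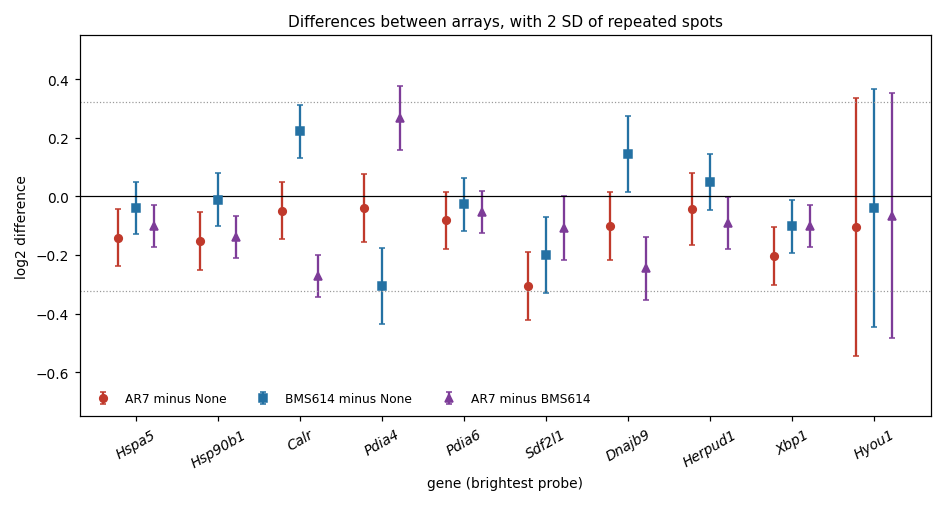
Log2 differences between arrays for the brighter probe of each of the 10 genes, with AR7 minus None as circles, BMS614 minus None as squares and AR7 minus BMS614 as triangles. Bars are 2 SD of repeated spots, dotted lines mark a signal higher by 25% on one of both arrays, which no gene reaches, and all 10 circles lie below 0.

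**Figure D3:**
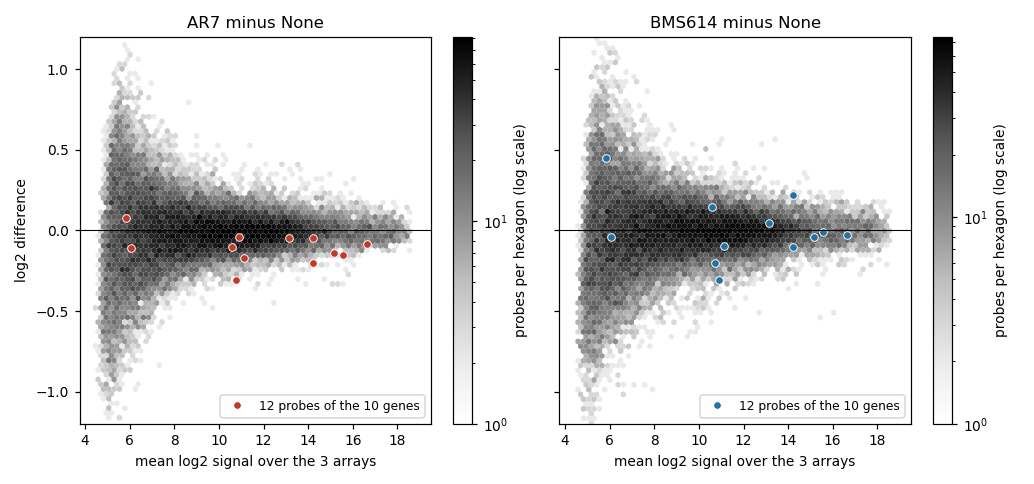
Log2 difference from None against mean log2 signal over the 3 arrays for probes well above background on every array and within the plotted range, as hexagons shaded by the number of probes on a log scale, with the 12 probes of the 10 genes as coloured points. The spread of all probes narrows as signal rises, and 11 of the 12 points lie below 0 with AR7.

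The other genes of the ER were taken in 6 lists by role, 92 genes of which 90 were well above background on all arrays, with Atf3 and Derl3 left out for being dim. Over these 90 the median log2 difference was -0.025 with AR7, 53 lower and 37 higher, and 0.0083 with BMS614, 37 lower and 52 higher. Of all probes, 52.1% were lower with AR7 and 51.3% with BMS614. With AR7, 12 of the 90 were lower and 7 higher by more than 2 SD, where 8.83% of all probes were lower and 8.77% higher. No gene of these lists differed by 25% or more with AR7, and Edem3 and Ubxn4 did so with BMS614.

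The sensors and transcription factors of the response lay close to None with AR7. Over 10 genes the median was -0.0057 with AR7 and 0.00030 with BMS614. None was past 2 SD with AR7, and 1 was lower by more than 2 SD with BMS614. Ern1, which encodes IRE1, was lowest with AR7 at -0.063 (SD 0.13), and Creb3l2, an ATF6-like factor that acts in collagen-secreting cells, was highest at 0.088 (SD 0.086) and lowest with BMS614 at -0.16 (SD 0.096). Atf6 was 0.015 (SD 0.13) with AR7 and 0.10 (SD 0.12) with BMS614.

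The stress genes of the PERK branch lay close to None with AR7 as well. The median over 6 genes was 0.021 with AR7 and 0.0095 with BMS614. None was past 2 SD with AR7, and 2 were lower by more than 2 SD with BMS614. Chac1, an enzyme that breaks down glutathione, was 0.054 (SD 0.049) with AR7 and 0.053 (SD 0.045) with BMS614. Trib3, a pseudokinase induced through ATF4, was 0.040 (SD 0.061) with AR7 and -0.20 (SD 0.048) with BMS614. Ppp1r15b, which directs a phosphatase to eIF2α, was -0.10 (SD 0.13) with AR7.

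Among 22 other chaperones and co-chaperones the median was -0.0020 with AR7, 12 lower and 10 higher, with 4 lower and 1 higher by more than 2 SD. With BMS614 the median was 0.0035, and 5 were lower and 1 higher by more than 2 SD. Manf, a secreted ER stress protein, was lowest with AR7 at -0.20 (SD 0.061) and lay at -0.022 (SD 0.048) with BMS614. Creld2, another secreted ER stress protein, was the lowest with BMS614 at -0.15 and was -0.19 with AR7. Its probe is printed 10 times, which gave log2 signals of 14.09 in None, 13.90 in AR7 and 13.94 in BMS614. All 10 spots were lower with each compound, with an SD over spots of 0.036 for AR7 and 0.044 for BMS614. Ganab, the catalytic subunit of glucosidase II, was highest with AR7 at 0.096 (SD 0.049), and Dnajc25 was highest with BMS614 at 0.20 (SD 0.065).

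The oxidative folding enzymes, the family to which Pdia4 and Pdia6 belong, had the largest share of lower genes with AR7 among the 6 other lists. Of 14 genes, 13 were lower (92.9%), 4 of them by more than 2 SD, and the median was -0.057. With BMS614, 4 were lower and 10 higher, and the median was 0.030. Tmx1, a membrane-bound thioredoxin, had a log2 signal of 11.12 in None, 10.88 in AR7 and 11.43 in BMS614. It was below None with AR7 (-0.24, SD 0.055) and above it with BMS614 (0.31, SD 0.051), and the difference between compounds was -0.55 (SD 0.045, 1.47-fold). Erp44, which retains proteins with free thiols, was -0.21 (SD 0.086) with AR7 and -0.11 (SD 0.096) with BMS614. Ero1a, the oxidase that feeds the isomerases, was 0.047 (SD 0.086) with AR7.

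The degradation genes, to which Herpud1 belongs, stood on both sides of None. Of 17 genes 8 were lower and 9 higher with AR7, the median being 0.019, and 4 were higher and 2 lower by more than 2 SD. With BMS614 the median was -0.0046, with 4 higher and 4 lower by more than 2 SD. Edem3, a mannosidase that marks misfolded glycoproteins, had a log2 signal of 9.92 in None, 10.09 in AR7 and 10.29 in BMS614, that is 0.17 (SD 0.076) with AR7 and 0.37 (SD 0.065, 1.29-fold) with BMS614. Ubxn4 was dim, and its 0.36 (SD 0.20, 1.28-fold) with BMS614 is within 2 SD. Selenos was -0.16 (SD 0.055) with AR7. Derl1 was -0.15 (SD 0.052) with BMS614 by its brighter probe, while its dimmer probe gave 0.063 (SD 0.051).

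In the translocation and secretory list of 21 genes the median was -0.019 with AR7 and 0.027 with BMS614. Among the receptors that return escaped ER proteins from the Golgi, Kdelr2 was -0.17 (SD 0.052) with AR7 and 0.027 (SD 0.052) with BMS614. The brighter Kdelr1 probe gave 0.20 (SD 0.058) with AR7 and 0.094 (SD 0.065) with BMS614. The other Kdelr1 probe, of nearly equal signal, gave 0.089 (SD 0.058) with AR7 and -0.086 (SD 0.065) with BMS614. Kdelr3 was -0.029 (SD 0.058) with AR7 and 0.003 (SD 0.065) with BMS614. Spcs2, a subunit of the signal peptidase, was -0.11 (SD 0.052) with BMS614, and Sec24d, a coat protein of vesicles leaving the ER, was 0.11 (SD 0.051).

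**Figure D4:**
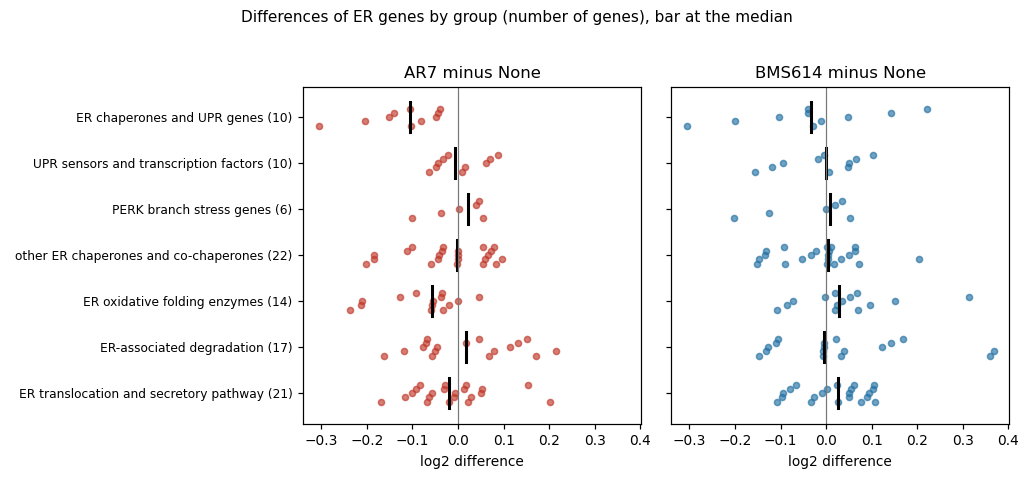
Log2 differences from None with AR7 and with BMS614 for each gene of the 10 ER chaperone and unfolded protein response genes and of the 6 other ER lists, with the number of genes well above background in brackets. Each point is 1 gene by its brightest probe and the black bar is the median of the list, -0.10 for the 10 genes and -0.057 for the oxidative folding enzymes with AR7.

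The differences were recomputed under 6 other ways of processing the arrays. With AR7 all 10 genes stayed below None under each of them, and the median over the 10 genes ran from -0.16 to -0.088. Under spike-in scaling the median of all probes, 0.14 with AR7, was subtracted first. Without that step, a gene less than 0.14 below None there would lie above it. Averaging the probes of a gene can change only Pdia6 and Dnajb9. The size of the difference depended on the processing for most genes. Calr with AR7 ran from -0.12 to -0.048, Pdia6 from -0.17 to -0.082, Herpud1 from -0.11 to -0.044, Hspa5 from -0.21 to -0.14, Pdia4 from -0.092 to -0.030, Hyou1 from -0.19 to -0.040 and Dnajb9 from -0.11 to -0.012, the last when its 2 probes were averaged. Sdf2l1 ran from -0.31 to -0.29, Xbp1 from -0.25 to -0.20 and Hsp90b1 from -0.21 to -0.13. With BMS614 the sign of 3 genes depended on the processing, Hsp90b1 running from -0.054 to 0.0020, Herpud1 from -0.034 to 0.048 and Hyou1 from -0.15 to 0.038. Calr (0.17 to 0.22) and Dnajb9 (0.12 to 0.30) stayed above None, the highest Dnajb9 value again being the mean of its 2 probes, and Pdia4 (-0.34 to -0.29), Sdf2l1 (-0.21 to -0.19) and Xbp1 (-0.14 to -0.10) stayed below it. The sign of AR7 minus BMS614 was the same for all 10 genes under each.

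**Figure D5:**
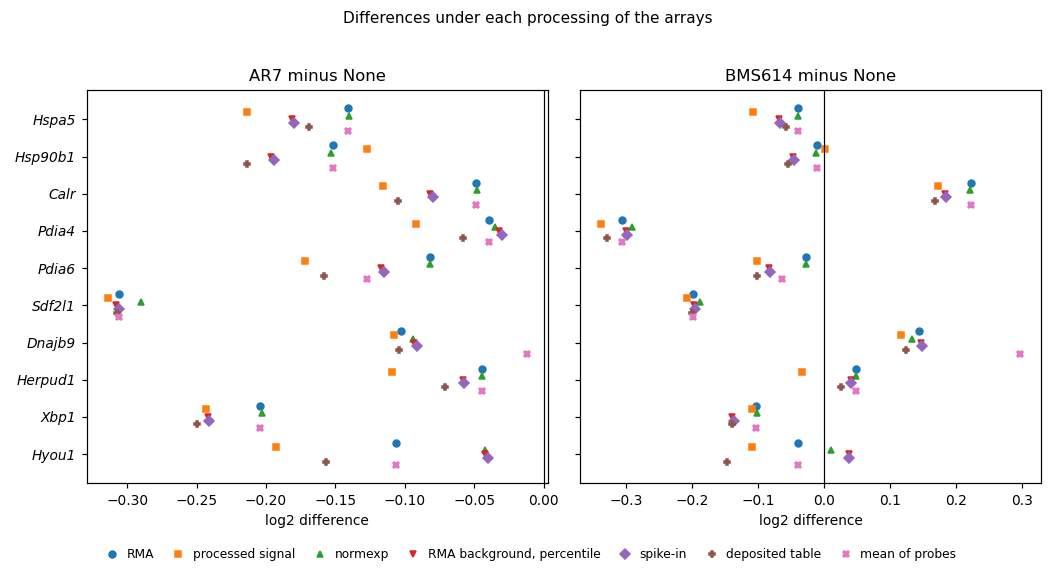
Log2 difference from None of the 10 genes with AR7 and with BMS614 under the RMA processing and the 6 alternatives, 1 symbol per processing. With AR7 every symbol lies below 0, and with BMS614 those of Hsp90b1, Herpud1 and Hyou1 fall on both sides of it. The spike-in values are shown after the median of all probes was subtracted.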

How the data were processed

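The arrays are one-colour Agilent mouse arrays hybridized with Cy3-labelled RNA. For each spot the authors deposited intensity values as read by the scanner software (Feature Extraction 10.7.3.1), not normalized between arrays. Their table of processed intensities served here as an alternative only. RMA from the oligo package is what the study's methods give, but that package was not available. The RMA convolution background was therefore computed from each spot's median pixel intensity (R 4.3.3, limma 3.58.1), with quantile normalization across the 3 arrays, log2 and averaging of the spots of a probe. Control spots and outlier spots were dropped.

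RefSeq accessions in the scanner output were looked up in a GRCm38.p6 gene table, which gave a symbol to 27235 of 55681 probes. Where a gene had several probes, the one with the highest mean signal stood for it. Spot error came from 267 probes printed 10 times, in 10 bins of signal, divided by the square root of a probe's number of spots. The number of arrays limits the precision, and no p-value was computed. If a scaling shifted the median of all probes by over 0.1 log2, that median was subtracted. A gene was counted when one signal exceeded the other by 25% or more, with folds of 1.1, 1.5 and 2 as alternatives. Counting by fold was tested on simulated data at 2-fold only, with planted log2 changes of 2. The smaller folds were not tested in this way. The other alternatives were 75th percentile scaling of the processed signal, normexp with an offset of 50, RMA background with percentile scaling, spike-in scaling, the deposited table with a floor of 16, and averaging every probe of a gene. The members and gene lists were chosen with earlier results of these data known. The genes named are the 10 members, the marker genes, and in each other list the highest and lowest gene with each compound and any gene past 25%, taken from those above background on every array. Kdelr3 and the other probes of Kdelr1 and Derl1 were added after values were seen. The 2 SD rule, the comparison with probes averaging a log2 signal of 10 or more and the promoter elements were chosen after values were seen. Counts and figures were made in Python (3.11.15) with the packages pandas (2.3.3), numpy (2.4.6) and matplotlib (3.10.9). Arrays of cells given other compounds were not analysed here.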

Additional observations from a re-analysis of the deposited data

How the results depend on the processing

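The median over the 10 genes with BMS614 moved from -0.034 to -0.10 under 75th percentile scaling of the processed signal, and Herpud1 with BMS614 turned from 0.048 to -0.034 there. The count of genes differing by 25% or more, 0 in each comparison, became 1 (Pdia4 with BMS614) with that signal and with the deposited table, 4 in each of the 3 comparisons at 1.1-fold, and stayed 0 at 1.5-fold and 2-fold. The cause was not tested, except that a lower fold lets more genes pass by construction. Between AR7 and BMS614, the median of the other ER chaperones moved from -0.0045 to -0.043 with the scaled processed signal, and that of the degradation genes from 0.025 to -0.021 when every probe of a gene was averaged. Spike-in scaling shifted the median of all probes by 0.14 with AR7 and 0.31 with BMS614, and differences under it are relative to that shift. The mean pixel intensity in place of the median was not run. No paired analysis was possible because there is only 1 array for each condition. The error of dim probes, such as that of Hyou1, limits what can be seen at low signal.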

Other observations

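Of all named genes with the letters of ERSE in the 250 bases before their start, 17 were well above background on all 3 arrays. With AR7 their median log2 difference from None was -0.040, with 10 lower and 7 higher, against -0.0058 over 11010 genes with a promoter in the set. Without Hspa5, Hsp90b1, Calr and Pdia6 the remaining 13 genes had a median of 0.0014, with 6 lower. Among those, Creld2 was -0.19, Syvn1, the ubiquitin ligase of the HRD1 complex, was 0.15, and Dnajc3, a co-chaperone of BiP that restrains PERK, was 0.046. With BMS614 the median of the 17 was 0.017. Genes with TGACGTGG (94 genes) had medians of 0.015 with AR7 and 0.023 with BMS614, those with TGACGTCA (309 genes) 0.00030 and 0.0062, and those with TGATGCAA (87 genes) -0.013 and -0.0055. These values are descriptions of 1 array per condition. Syvn1 and Dnajc3 were chosen after their values were seen.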
